A study of Mus musculus with 8 samples.

Results

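The surface markers by which mouse hematopoietic stem and progenitor cells are sorted were examined as transcripts in the cells that had been sorted by them. The 9 genes were Kit, Ly6a (which encodes Sca1), Cd34, Fcgr3 (CD16), Fcgr2b (CD32), Slamf1 (CD150), Cd48, Flt3 and Eng (CD105). They were taken by symbol, and all 9 of 9 were found among the 29955 genes listed. The rule used none of their values, but the list was made with earlier results of these data known. RNA-seq had been done on bone marrow LSK cells (Lin- Sca1+ Kit+) and LK cells (Lin- Kit+) of WT mice and of Ripk3-KO mice on a background that the labels spell CD57BL6/J, to study the role of Ripk3 signaling in these cells. There were 4 groups (WT LSK, Ripk3-KO LSK, WT LK and Ripk3-KO LK) of 2 libraries each. Ripk3-KO mice carry the germline allele Ripk3-/-, and the sources used here give no age, no number of mice per library and no statement on whether replicates came from separate mice, so that p-values measure only the spread between these libraries. The study's text places all mice, WT included, at 1 month after a series of X-ray doses, whereas the labels list no treatment. The labels of LK cells name Lin and Kit alone, while the study's text describes LK cells as negative for Sca1.

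Kit is the receptor for stem cell factor and Sca1 is a small lipid-anchored protein of the Ly6 family. Within Sca1+ Kit+ cells, Flt3, the receptor for Flt3 ligand, is known to mark multipotent progenitors with lymphoid potential, while CD150 without CD48 is known to mark hematopoietic stem cells (HSCs). Within Kit+ Sca1- cells, CD34 and the Fc receptors CD16 and CD32 are used to separate common myeloid, granulocyte-monocyte and megakaryocyte-erythroid progenitors, and endoglin (CD105), a co-receptor for TGF-beta and BMP ligands, is used to follow erythroid progenitors. The gates read protein, and the values here are transcripts.

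The deposited values were headed FPKM but were whole reads scaled to CPM, with TMM library scaling factors set separately in LSK and in LK libraries, and are called signal here. Reads recovered from them ran from 9782166 to 16280811 per library, so that 3 reads, the limit that a count of 0 allows, corresponded to 0.186 to 0.311 signal for counting error alone. Ripk3 itself stood at 162 and 168 signal in WT LSK, 3.38 and 1.08 in Ripk3-KO LSK, 144 and 150 in WT LK, and 16.2 and 10.6 in Ripk3-KO LK. Xist had 1589 to 4050 reads in WT libraries and 0 to 13 in Ripk3-KO libraries, and the Y-linked genes Uty, Eif2s3y and Kdm5d had reads in Ripk3-KO libraries and 0 in WT libraries (Ddx3y had 0 in all 8), so that genotype and sex cannot be told apart in any comparison of genotypes. To compare LSK with LK cells, the recovered reads of all 8 libraries were put on one scale (called joint CPM).

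In GENCODE M21 (build GRCm38, matched by symbol, whereas the submitters' notes name mm9) the members are protein-coding genes. On chromosome 1 lie Cd34 (chr1:194938819-194961279, plus strand), Fcgr3 (chr1:171051174-171064935, minus strand), Fcgr2b (chr1:170958617-170976547, minus strand), Slamf1 (chr1:171767127-171801184, plus strand) and Cd48 (chr1:171682009-171705258, plus strand). The others are Kit (chr5:75574916-75656722, plus strand), Ly6a (chr15:74994877-74998031, minus strand), Flt3 (chr5:147330741-147400489, minus strand) and Eng (chr2:32646595-32682669, plus strand).

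The Fc receptor genes and Ly6a have close relatives, and stretches that they share are shown here as examples. A read that lies wholly within such a stretch cannot be assigned by sequence. Fcgr3 and Fcgr2b transcripts aligned over up to 512 bases at 90% identity or more, with 96.5% in the best match. The longest run of identical coding bases was 129 bases long (bases 263 to 391 of the Fcgr3 coding sequence, bases 278 to 406 of Fcgr2b) and is written out first, from GENCODE M21 transcripts. Ly6a aligned at 90% identity or more over up to 336 bases with Ly6i, 263 with Ly6c1 and 245 with Ly6c2, a Ly6 gene of monocytes and their progenitors. Its longest run of identical coding bases was 80 bases with Ly6i (bases 50 to 129 of Ly6a), written out second, and the run of 52 bases with the abundant Ly6c2 (bases 333 to 384 of Ly6a) is written out last.
Fcgr3 and Fcgr2b: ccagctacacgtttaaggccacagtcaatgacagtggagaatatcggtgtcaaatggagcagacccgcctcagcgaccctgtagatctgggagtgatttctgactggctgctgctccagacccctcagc
Ly6a and Ly6i: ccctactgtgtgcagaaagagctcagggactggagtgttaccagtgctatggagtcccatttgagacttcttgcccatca
Ly6a and Ly6c2: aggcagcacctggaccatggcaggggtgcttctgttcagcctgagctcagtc

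Kit, Cd48, Flt3 and Eng shared no stretch of 200 bases or more at 90% identity with another gene, whereas Cd34 shared one with 8 genes, 5 of them listed in the files. How the authors assigned shared reads is not given in the sources used here, so values of Fcgr3, Fcgr2b, Ly6a, Cd34 and Slamf1 are uncertain by such reads. Eng overlaps Fpgs on the opposite strand of chromosome 2, and although the library kit keeps strand, the setting used in counting is not given in the sources used here.

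The members that passed the test between LSK and LK cells in both genotypes were Ly6a, Flt3, Fcgr3, Fcgr2b and Cd34. The sequences before the start sites of these genes, on which the RefSeq table (build GRCm38.p6) holds all members except Ly6a (8 of 9 matched), are shown for Flt3 and Cd34, higher in LSK cells, and for Fcgr3 and Fcgr2b, higher in LK cells. Each holds the 250 bases before the start site, 5′ to 3′ on the gene's strand, with the letters of an ETS motif in capitals where present. The windows of Fcgr3 and Fcgr2b lie inside the GENCODE M21 spans given above for these genes. Their RefSeq start sites thus lie downstream of the outermost GENCODE 5′ ends.
Flt3, chr5:147400490-147400739, minus strand: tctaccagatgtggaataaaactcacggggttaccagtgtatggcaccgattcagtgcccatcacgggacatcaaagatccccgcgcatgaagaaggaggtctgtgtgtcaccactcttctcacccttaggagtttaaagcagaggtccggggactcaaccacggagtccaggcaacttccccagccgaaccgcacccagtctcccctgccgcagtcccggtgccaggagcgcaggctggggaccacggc
Cd34, chr1:194938571-194938820, plus strand: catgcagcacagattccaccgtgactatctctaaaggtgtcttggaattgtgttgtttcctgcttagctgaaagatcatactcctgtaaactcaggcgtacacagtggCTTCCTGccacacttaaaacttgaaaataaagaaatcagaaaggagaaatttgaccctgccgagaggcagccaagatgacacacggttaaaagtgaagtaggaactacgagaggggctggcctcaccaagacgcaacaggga
Fcgr3, chr1:171059404-171059653, minus strand: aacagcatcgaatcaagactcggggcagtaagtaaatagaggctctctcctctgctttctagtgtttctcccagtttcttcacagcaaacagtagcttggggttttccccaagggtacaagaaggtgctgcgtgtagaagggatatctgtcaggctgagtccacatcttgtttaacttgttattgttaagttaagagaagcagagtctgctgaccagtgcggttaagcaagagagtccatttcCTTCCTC
Fcgr2b, chr1:170976072-170976321, minus strand: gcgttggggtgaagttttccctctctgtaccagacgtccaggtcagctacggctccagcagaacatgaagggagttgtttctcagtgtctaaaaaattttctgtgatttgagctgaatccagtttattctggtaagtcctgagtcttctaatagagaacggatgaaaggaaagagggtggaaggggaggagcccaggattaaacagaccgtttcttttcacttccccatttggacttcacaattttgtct

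The ETS letters CAGGAAG or GAGGAAG, on either strand, were present in the windows of Kit, Cd34, Fcgr3, Slamf1 and Eng, and in 20.1% of 32851 RefSeq windows of the same length. In Fcgr3, for which one of 2 listed start sites is shown, they ended at the last base before it. The GATA letters AGATAA or TGATAA were present in Slamf1 (16.6% of all windows), and the RUNX letters TGTGGT in Cd48 (14.0% of all windows). No CEBP letters (TTGCGCAA, TTGCACAA or TTGCATAA, in 1.74% of all windows) were found in a member, and the windows of Flt3 and Fcgr2b held none of the letters searched, none of which overlapped in a member. A match or its absence describes only these letters in these windows.

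The first question was how the transcripts of the sort markers stood against the gates. Ly6a separated the populations by its level. In WT LSK libraries Ly6a stood at 123 and 169 joint CPM, in Ripk3-KO LSK at 166 and 207, in WT LK at 2.01 and 0.861, and in Ripk3-KO LK at 4.68 and 0.142. All 4 LSK libraries lay above all 4 LK libraries, whose Ly6a rested on 26, 10, 65 and 2 reads. The mean of LK libraries was 0.984% of that of LSK libraries in WT and 1.29% in Ripk3-KO. Ly6c2, one of 3 relatives that share sequence with Ly6a, stood at 1813 to 2142 joint CPM in the same LK libraries. On the log2 scale Ly6a was 5.94 (SE 0.53) higher in LSK than in LK cells in WT and 6.19 (SE 0.53) higher in Ripk3-KO, ranks 2 and 3 of 15757 genes by size of difference. Since Sca1 set the gate, this is a check of the labels.

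Kit, which every gate required, showed no such gap. Its level was 196 and 262 joint CPM in WT LSK, 411 and 311 in Ripk3-KO LSK, 289 and 267 in WT LK, and 373 and 368 in Ripk3-KO LK. The LSK libraries lay below the LK libraries in WT and spanned them in Ripk3-KO. The log2 difference, LSK over LK, was -0.29 (95% interval -0.68 to 0.096) in WT and -0.052 (-0.44 to 0.34) in Ripk3-KO, and under the deposited scaling it turned to 0.074 and 0.32, and under quantile normalization to 0.21 and 0.41, so that its direction depends on how the populations are scaled. Within a library, which needs no scaling, the log2 ratio of Ly6a to Kit reads was -0.65 ± 0.022 (SD, n = 2) in WT LSK, -0.95 ± 0.51 in Ripk3-KO LSK and -7.72 ± 0.79 in WT LK. It was -6.31 in Ripk3-KO LK library 1, and library 2 held 2 Ly6a reads beside 5175 Kit reads.

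**Figure D1:**
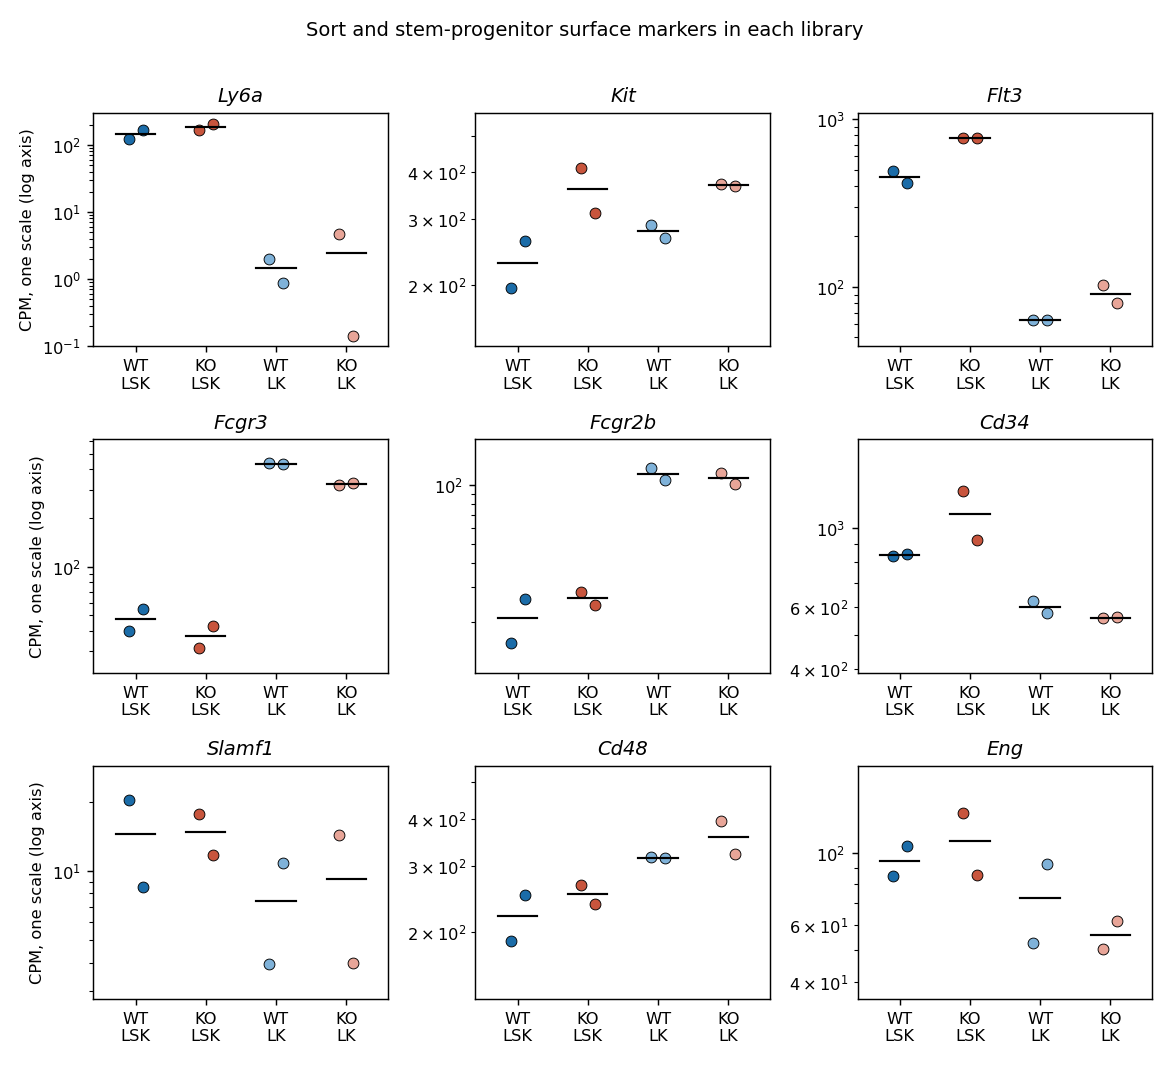
Level of each of the 9 marker genes in each library, as CPM on one scale for all 8 libraries (log axis, a scale of its own in each panel); points are libraries and the black bar is the mean of the 2 libraries of a group. Ly6a and Flt3 sit higher in every LSK library than in any LK library, Fcgr3 and Fcgr2b sit lower, and the Slamf1 points of LSK and LK libraries overlap within each genotype.

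The second question was how the markers differ between LSK and LK cells. The counts and medians over the 9 members include Ly6a and Kit, whose proteins set the gates. The Ly6a call within them was fixed by the sort and is a check of the labels. In WT cells 6 of 9 members passed the test (limma, Benjamini-Hochberg adjusted p under 0.05), where 23.9% of the 15757 genes tested did, with 3 higher (8.98% of genes) and 3 lower (14.9% of genes) in LSK cells. In Ripk3-KO cells 6 of 9 passed, where 19.3% of genes did, with 4 higher (7.56% of genes) and 2 lower (11.7% of genes). The libraries of LSK and LK cells did not overlap for 7 of 9 members in WT (63.9% of genes) and 7 of 9 in Ripk3-KO (56.6% of genes). The median log2 difference of the members was 0.43 in WT and 0.82 in Ripk3-KO, against 0.050 and -0.0031 for all genes. Under the deposited scaling the median of all genes became 0.39 in WT and 0.31 in Ripk3-KO, and the share of called genes that were higher in LSK cells went from 37.5% to 70.2% in WT and from 39.2% to 71.4% in Ripk3-KO. With quantile normalization that share was 49.2% and 49.4%, and with libraries centred on their medians 30.2% and 24.8%. In these bulk samples fewer cells of a type and less RNA per cell cannot be told apart.

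Flt3 had the largest LSK excess of the members after Ly6a. It stood at 488 and 415 joint CPM in WT LSK, 775 and 775 in Ripk3-KO LSK, 63.1 and 63.1 in WT LK, and 102 and 79.8 in Ripk3-KO LK. Every LSK library lay above every LK library, and the LK mean was 14.0% of the LSK mean in WT and 11.7% in Ripk3-KO. The log2 difference was 2.81 (SE 0.19, limma adjusted p = 3.4e-10) in WT and 3.09 (SE 0.19, adjusted p = 6.4e-11) in Ripk3-KO.

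Fcgr3, an activating receptor for IgG, ran the other way. It stood at 40.0 and 54.5 joint CPM in WT LSK, 31.4 and 43.0 in Ripk3-KO LSK, 438 and 432 in WT LK, and 319 and 331 in Ripk3-KO LK. The LK mean was 921% of the LSK mean in WT and 874% in Ripk3-KO, with no overlap between populations. Fcgr3 was thus lower in LSK cells, with log2 differences of -3.19 (SE 0.22, limma adjusted p = 5.3e-10) in WT and -3.11 (SE 0.22, adjusted p = 8.0e-10) in Ripk3-KO.

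Fcgr2b, the inhibitory IgG receptor, followed Fcgr3 with a smaller gap. Its levels were 15.7 and 26.3 joint CPM in WT LSK, 28.6 and 24.4 in Ripk3-KO LSK, 121 and 105 in WT LK, and 115 and 101 in Ripk3-KO LK. No LSK library reached an LK library. The log2 differences were -2.42 (SE 0.29, limma adjusted p = 2.3e-06) in WT and -1.99 (SE 0.29, adjusted p = 2.5e-05) in Ripk3-KO. The log2 ratio of Fcgr2b to Fcgr3 reads within a library was -1.20 ± 0.21 (SD, n = 2) in WT LSK and -0.48 ± 0.48 in Ripk3-KO LSK, and -1.94 ± 0.13 and -1.59 ± 0.17 in WT and Ripk3-KO LK, so that every LK library lay below every LSK library. How reads of the stretch that both genes share were divided is not given in the sources used here.

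Cd34, a sialomucin, had the highest level of the members in LSK cells. It stood at 836 and 847 joint CPM in WT LSK, 1270.1 and 928 in Ripk3-KO LSK, 624 and 575 in WT LK, and 557 and 561 in Ripk3-KO LK. All LSK libraries lay above all LK libraries. The log2 difference was 0.49 (SE 0.16, limma adjusted p = 0.0313) in WT and 0.96 (SE 0.16, adjusted p = 1.7e-04) in Ripk3-KO. Leaving out any one WT library ended the call in WT, with adjusted p between 0.0829 and 0.151 and log2 differences of 0.43 to 0.55, as did no filter (0.106), median-centred libraries (0.0724) and no trend in the prior variance (0.232). In Ripk3-KO the Cd34 call was lost with no trend (limma adjusted p = 0.0712). The log2 ratio of Fcgr3 to Cd34 reads, the axes on which LK cells are split, was -4.17 ± 0.30 (SD, n = 2) in WT LSK, -4.89 ± 0.64 in Ripk3-KO LSK, -0.46 ± 0.068 in WT LK and -0.78 ± 0.031 in Ripk3-KO LK.

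**Figure D2:**
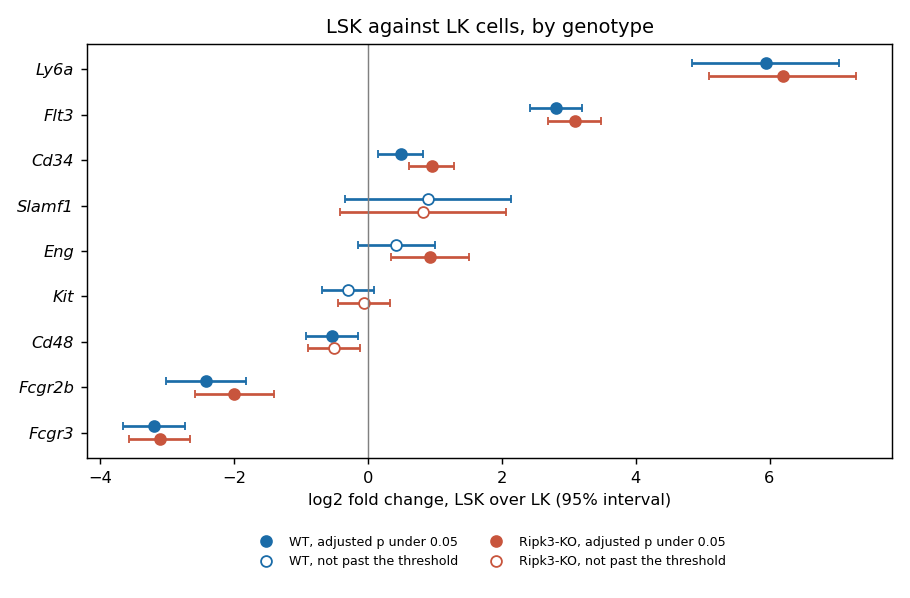
Log2 fold change of each marker in LSK over LK cells (limma, joint scale), with 95% intervals, in WT (blue) and Ripk3-KO (red) mice; filled points passed an adjusted p of 0.05. Ly6a and Flt3 lie far to the right and Fcgr3 and Fcgr2b far to the left in both genotypes, while the interval of Kit crosses 0 in both.

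Slamf1 and Cd48, the SLAM pair, were measured with very different precision. Slamf1, the self-ligand receptor CD150, was low, at 20.5 and 8.55 joint CPM in WT LSK, 17.8 and 11.7 in Ripk3-KO LSK, 3.95 and 10.9 in WT LK, and 14.4 and 3.98 in Ripk3-KO LK. Replicates of one group differed by 1.52-fold to 3.62-fold and the populations overlapped. Its log2 difference between LSK and LK cells was 0.90 (95% interval -0.33 to 2.14) in WT and 0.82 (-0.42 to 2.06) in Ripk3-KO, intervals that hold both no difference and a 4-fold one. Slamf1 shared stretches of 200 bases or more at 90% identity with 64 other genes, and how its reads were affected was not tested.

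Cd48, the lipid-anchored ligand of CD244 and CD2, was abundant in both populations, at 188 and 251 joint CPM in WT LSK, 265 and 237 in Ripk3-KO LSK, 315 and 314 in WT LK, and 395 and 321 in Ripk3-KO LK. The LSK libraries lay below the LK libraries in each genotype. The log2 difference was -0.53 (SE 0.19, limma adjusted p = 0.0408, edgeR adjusted p = 0.0909) in WT and -0.50 (SE 0.19, limma adjusted p = 0.0615, edgeR adjusted p = 0.0965) in Ripk3-KO. The Ripk3-KO difference passed with median-centred libraries (limma adjusted p = 0.0077) and with a filter mean of at least 5 (0.0458). Quantile normalization brought the WT difference to -0.010 and the deposited scaling to -0.17, neither of which passed. Leaving out either WT LK library, either Ripk3-KO LK library or WT LSK library 1 also ended the call, with adjusted p from 0.0512 to 0.308. The log2 ratio of Slamf1 to Cd48 reads, which follows the HSC gate, spread from -4.87 to -3.20 in LSK libraries and from -6.33 to -4.78 in LK libraries.

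Eng stood at 84.6 and 105 joint CPM in WT LSK, 133 and 85.4 in Ripk3-KO LSK, 52.7 and 92.3 in WT LK, and 50.3 and 61.4 in Ripk3-KO LK. The populations overlapped in WT, where the log2 difference was 0.43 (95% interval -0.15 to 1.01), and did not overlap in Ripk3-KO, where it was 0.93 (SE 0.28, limma adjusted p = 0.0218). In Ripk3-KO the call was lost without LSK library 1 or either LK library, with adjusted p from 0.0637 to 0.190, and also with no filter (0.113), median-centred libraries (0.0641) and no trend in the prior variance (0.169). Relative to Cd34 reads in the same library, Eng gave log2 ratios between -3.56 and -2.64, with group means of -3.16, -3.35, -3.10 and -3.33 in WT LSK, Ripk3-KO LSK, WT LK and Ripk3-KO LK. The LSK to LK difference of Eng in one genotype was not shown to differ from that in the other (interaction 0.50, 95% interval -0.32 to 1.32, limma adjusted p = 0.691).

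**Figure D3:**
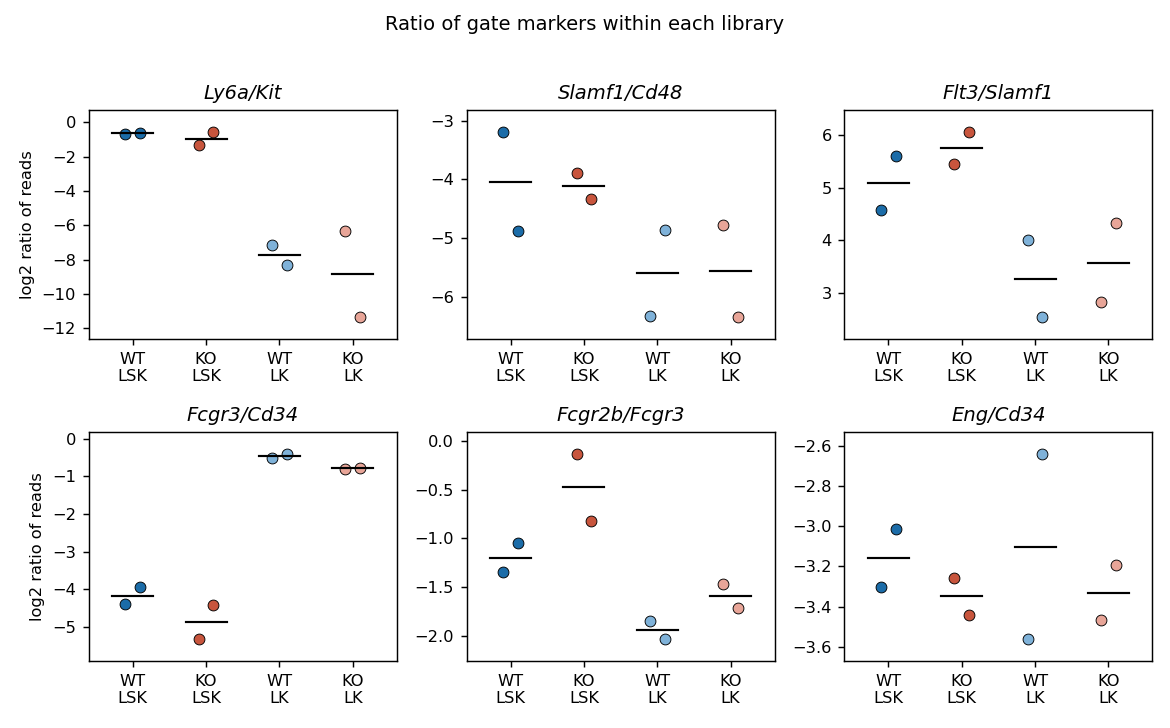
Log2 ratio of the reads of one gate marker to another within each library (points), with the mean of the 2 libraries of a group (black bar). Ly6a/Kit and Fcgr3/Cd34 separate all LSK from all LK libraries, while Slamf1/Cd48 and Eng/Cd34 do not.

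Levels of different genes can be set beside each other only per length of transcript. In joint CPM per kb of the longest transcript, Cd34 led in WT LSK cells with 275 ± 2.42 (SD, n = 2), followed by Cd48 (185 ± 37.3), Ly6a (153 ± 33.6), Flt3 (114 ± 12.9), Kit (43.7 ± 8.93), Fcgr3 (35.1 ± 7.59), Eng (27.7 ± 4.21), Fcgr2b (5.92 ± 2.11) and Slamf1 (3.28 ± 1.91). Of neighbours in this order, the ranges of Cd48 and Ly6a, of Kit and Fcgr3, of Fcgr3 and Eng, and of Fcgr2b and Slamf1 overlapped. In WT LK cells Fcgr3 led with 323 ± 3.09 CPM per kb, followed by Cd48 (266 ± 0.61), Cd34 (196 ± 11.1), Kit (53.0 ± 2.92), Fcgr2b (32.0 ± 3.23), Eng (21.2 ± 8.18), Flt3 (15.98 ± 0.001), Slamf1 (1.67 ± 1.10) and Ly6a (1.51 ± 0.85). Eng overlapped Flt3 and Slamf1 overlapped Ly6a. Ripk3-KO LSK cells differed from the WT LSK order in that Flt3 (196 ± 0.16 CPM per kb) stood beside Ly6a (195 ± 30.5), with overlapping ranges, and in that Eng preceded Fcgr3, again with overlapping ranges. In Ripk3-KO LK cells Cd48 (302 ± 43.8 CPM per kb) preceded Fcgr3 (241 ± 6.43), and Flt3 (23.0 ± 3.997) preceded Eng (16.3 ± 2.30), in both cases without overlap. The order depends on the length taken. Per kb of the median transcript, Kit in WT LSK cells stood at 116 ± 23.7 CPM per kb, a range that overlaps that of Flt3 (119 ± 13.4), and Eng (47.9 ± 7.29) preceded Fcgr3 (36.0 ± 7.80) without overlap. In Ripk3-KO LK cells Eng (28.2 ± 3.97) preceded Flt3 (23.9 ± 4.15) with overlapping ranges.

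The third question was how these markers differed between Ripk3-KO and WT libraries of a sorted population, where genotype and sex cannot be told apart. In LSK cells Flt3 was the single member past the threshold, higher in Ripk3-KO. This is 1 of 9 members, where 2.16% of the 16817 genes tested passed. Flt3 stood at 555 and 473 signal in WT LSK and at 874 and 886 in Ripk3-KO LSK, with both Ripk3-KO libraries above both WT libraries. The log2 fold change was 0.78 (SE 0.19, 95% interval 0.39 to 1.17, limma adjusted p = 0.0298, edgeR adjusted p = 0.0339). Leaving out any one of the 4 LSK libraries ended the call, with log2 fold changes from 0.66 to 0.89 and adjusted p from 0.0724 to 0.165. The call also ended with no filter on low values (adjusted p = 0.0725), with libraries centred on their medians (0.67, adjusted p = 0.0696) and with no trend in the prior variance (adjusted p = 0.209).

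Kit and Cd34 were the other members whose LSK libraries did not overlap between genotypes, so that 3 of 9 in all were higher without overlap, where 21.4% of genes were (44.6% in either direction). Kit stood at 223 and 298 signal in WT LSK and at 464 and 355 in Ripk3-KO LSK, a log2 difference of 0.65 (SE 0.18, limma adjusted p = 0.0695). Cd34 stood at 953 and 965 signal in WT LSK and at 1434 and 1060.5 in Ripk3-KO LSK, a log2 difference of 0.36 (SE 0.16, limma adjusted p = 0.230). Neither passed, although with quantile normalization limma gave an adjusted p of 0.0302 for Kit and 0.0373 for Cd34, and DESeq2 gave 0.0428 for Kit. The remaining members overlapped. Their log2 differences were 0.36 for Ly6a (95% interval -0.72 to 1.43), -0.34 for Fcgr3 (-0.80 to 0.11), 0.36 for Fcgr2b (-0.23 to 0.95), 0.11 for Slamf1 (-1.14 to 1.36), 0.20 for Cd48 (-0.18 to 0.58) and 0.17 for Eng (-0.41 to 0.76). The median over the members was 0.36, against -0.0086 over all genes, and 8 of the 9 differences were above 0. With libraries centred on their medians the median of all genes moved to -0.12 and the share of called genes that were higher in Ripk3-KO went from 41.3% to 23.5%.

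In LK cells 0 of 9 members passed (limma), where 0.473% of the 13949 genes tested did, 2 had an unadjusted p under 0.05 (6.56% of genes), and 0 passed in edgeR (0.43% of genes). Flt3 stood at 55.4 and 55.9 signal in WT LK and at 89.9 and 69.6 in Ripk3-KO LK, a log2 difference of 0.50 (95% interval 0.11 to 0.88, limma adjusted p = 0.485). Kit stood at 253 and 237 signal in WT LK and at 328 and 321 in Ripk3-KO LK, a difference of 0.41 (0.023 to 0.79, limma adjusted p = 0.711). Both Ripk3-KO libraries lay above both WT libraries for these genes and for Cd48 (3 of 9, 20.1% of genes), and below them for Cd34 and Fcgr3 (2 of 9, 19.9% of genes). That is 5 of 9 members, where the libraries of 40% of all genes did not overlap. Fcgr3 stood at 384 and 383 signal in WT LK and at 281 and 289 in Ripk3-KO LK, a log2 difference of -0.43 (-0.88 to 0.024, limma adjusted p = 0.787). For Slamf1 the interval ran from -1.06 to 1.43 and for Ly6a from -0.95 to 1.19, both reaching past a 2-fold increase.

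**Figure D4:**
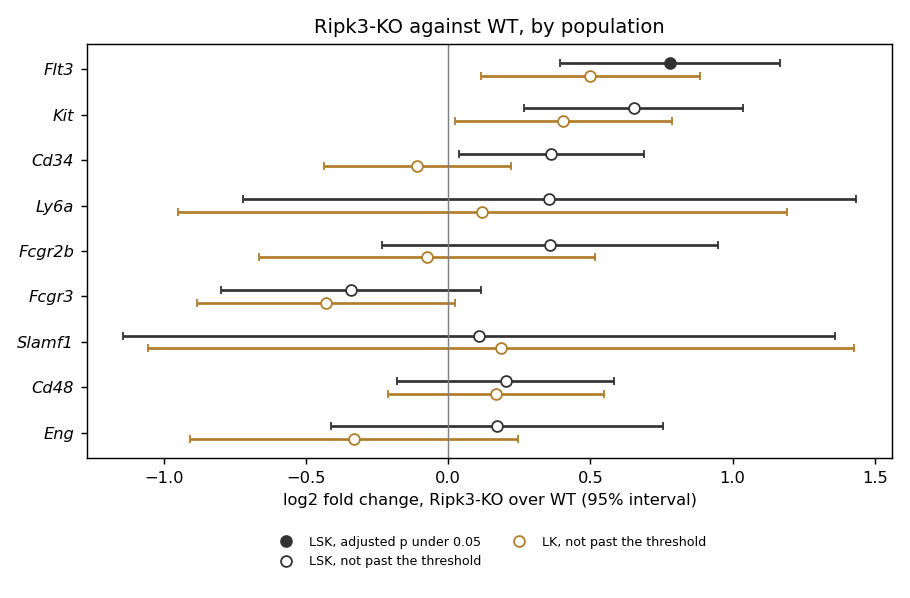
Log2 fold change of each marker in Ripk3-KO over WT libraries (limma, deposited signal), with 95% intervals, in LSK (black) and LK (brown) cells; the filled point passed an adjusted p of 0.05. Flt3 in LSK cells is the filled point, at 0.78, and the Flt3 and Kit intervals lie above 0 in both populations without correction.

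An interaction term tested whether a marker differed more between genotypes in one population than in the other. Of the members 0 of 9 passed (limma), where 0.358% of the 15901 genes tested did, 1 had an unadjusted p under 0.05 (10.1% of genes) and 0 passed in edgeR (0.34% of genes). For Flt3 the difference of differences was 0.28 (95% interval -0.27 to 0.83, limma adjusted p = 0.743), so that the Flt3 call in LSK cells was not shown to be particular to them. The member with the unadjusted p under 0.05 was Cd34, at 0.47 (0.010 to 0.93, limma adjusted p = 0.482). The genotype differences in LSK and in LK cells were taken between separate libraries. Their limma tests were not independent, since the fit pooled the spread of all libraries of both populations. The LSK to LK comparisons use the same libraries as the genotype ones.

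Markers of other cells moved with genotype beside the Flt3 result. Of all genes tested, 2.16% passed between genotypes in LSK cells and 0.473% in LK cells, in either direction (limma). Those higher in Ripk3-KO were 150 of 16817 genes in LSK cells and 14 of 13949 in LK cells. Of the 11 listed genes of maturing neutrophils in the files (Ly6g is not among the names), 8 were higher in Ripk3-KO LSK cells (limma), Ltf (lactoferrin) by 2.76 and Ngp by 2.02 on the log2 scale, and 5 were higher in Ripk3-KO LK cells, with medians of 1.94 and 1.23 against -0.0086 and 0.0093 over all genes. Their summed level was 635 to 685 joint CPM in WT LSK and 2121 to 2471 in Ripk3-KO LSK, and 925 to 935 in WT LK and 1987 to 2004 in Ripk3-KO LK. In each library 10 or 11 of the 11 lay above 3 reads. Their part in the Flt3 result was not tested. Of 11 erythroid genes in the files 1 was lower in Ripk3-KO LSK (Gata1, -1.32) and 1 in Ripk3-KO LK (Car2, -0.73). Their summed level was 2980 to 3451 joint CPM in WT LK and 2098 to 2212 in Ripk3-KO LK. In LSK cells it was 1475 to 1643 in WT and 1597 to 1693 in Ripk3-KO. In WT LK library 1, with a sum of 3451, Car1 stood at 1417 and Car2 at 1485 joint CPM. Of the T and NK cell and B cell lists, Cd3e stood at 0.36 to 3.40 and Pax5 at 0 to 2.46 joint CPM over the 8 libraries. Some other genes of these lists were higher. Nkg7 stood at 509 to 656 joint CPM in LSK and 1604 to 1907 in LK libraries. Lck stood at 54.5 to 85.5 and 11.3 to 12.7, and Cd79b at 43.4 to 77.8 and 47.4 to 72.1. Summed levels ran from 606 to 1933 joint CPM for the T and NK cell list and from 66.5 to 108 for the B cell list. Of the B cell, T and NK cell, stromal and endothelial, and lineage panel lists, 0 genes passed between genotypes (limma), of the macrophage and dendritic list 1 was higher in Ripk3-KO LK (Cd74, 1.17), and of the mast cell and basophil list 1 was lower in Ripk3-KO LSK (Cma1, -3.49).

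Other genes by which stem and multipotent cells are gated were set beside the members. Of 14, 7 were higher and 3 lower in WT LSK than in WT LK cells (limma), where 8.98% and 14.9% of all genes were, and 5 were higher and 3 lower in Ripk3-KO, where 7.56% and 11.7% were, with medians of 1.09 and 0.74 against 0.050 and -0.0031 over all genes. Esam, an adhesion molecule, was higher by 5.22 (SE 0.37) on the log2 scale in WT and by 3.58 in Ripk3-KO. Procr, the endothelial protein C receptor (EPCR), was higher by 5.06 (SE 0.53) and 5.65, with 56.3 to 121 joint CPM in LSK and 0 to 2.41 in LK libraries. Cd27, a TNF receptor family member, was higher by 1.67 and 1.66. Vcam1, an adhesion molecule also of macrophages, was lower in LSK cells by log2 differences of -2.04 and -2.09, Itga2b (CD41) by -1.60 and -1.35, and Prom1 (CD133) by -1.44 and -2.24. Between genotypes 0 of the 14 passed in LSK cells and 1 in LK cells, Esam, which stood at 1.77 and 2.06 signal in WT LK and at 7.23 and 9.31 in Ripk3-KO LK (log2 difference 1.66, SE 0.36, limma adjusted p = 0.0364).

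Among 12 further genes used to gate progenitors, set against the same shares of all genes, 2 were higher and 6 lower in WT LSK than in WT LK cells (limma), and 2 were higher and 7 lower in Ripk3-KO, with medians of -1.27 and -1.38. Ly6c2 was lower in LSK cells by log2 differences of -2.82 in WT and -2.99 in Ripk3-KO, Csf1r, the M-CSF receptor, by -3.00 and -3.58, Tfrc, the transferrin receptor, by -2.22 and -1.37, and Epor, the erythropoietin receptor, by -2.22 and -2.50. Ly6d and Il7r, markers of lymphoid progenitors, were higher in LSK cells, by 2.80 and 2.51 in WT and by 3.33 and 2.12 in Ripk3-KO, at Ly6d levels of 10.5 to 20.6 joint CPM in LSK libraries. Il7r was low, at 5.48 to 10.02 joint CPM in LSK and 0 to 2.38 in LK libraries, and did not pass in edgeR (adjusted p = 0.118 in WT and 0.265 in Ripk3-KO). Between genotypes (limma) 0 of the 12 passed in LSK cells and 0 of 10 tested in LK cells.

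**Figure D5:**
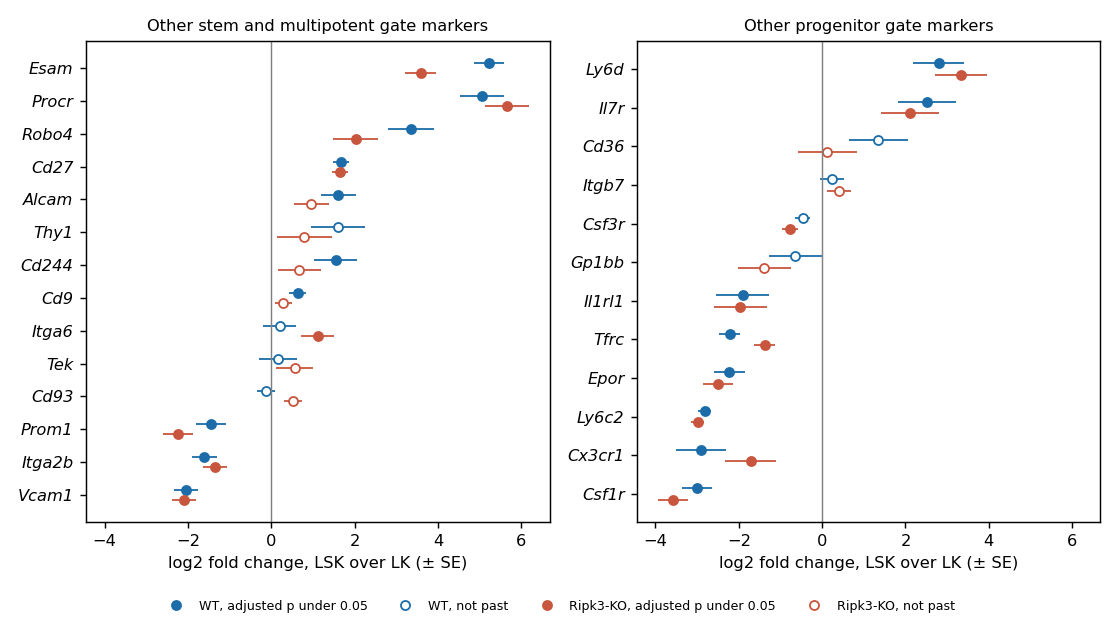
Log2 fold change, LSK over LK cells (limma, joint scale, bars are SE), of 14 other stem and multipotent gate markers (left) and 12 other progenitor gate markers (right), in WT (blue) and Ripk3-KO (red); filled points passed an adjusted p of 0.05. Esam, Procr, Robo4 and Cd27 are higher in LSK cells in both genotypes, and Ly6c2, Csf1r, Tfrc and Epor are lower.

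The molecules that work with the members were compared against the same background of 23.9% of genes called in WT and 19.3% in Ripk3-KO. Of 14 ligands, receptor relatives and adaptors of Kit and Flt3, 13 could be tested, and 3 were lower in LSK than in LK cells in each genotype, among them Csf1r and the adaptor Shc1 (-1.42 in WT and -1.83 in Ripk3-KO). Of 8 tested SLAM receptors and adaptors, 3 were higher and 1 lower in WT LSK cells (Slamf8 2.87, Slamf7 2.15 and Cd244 1.54, and Sh2d1b1 -2.13), of which Cd244 and Sh2d1b1 did not pass in edgeR (adjusted p = 0.0739 and 0.152), and 0 passed in Ripk3-KO. Of 6 tested Fc receptors and partners, Fcer1g, the signaling chain of Fcgr3, was lower in LSK cells (-0.92 in WT and -0.89 in Ripk3-KO), as was Ms4a2 (-3.16 and -3.37), while Fcgrt, the neonatal Fc receptor, was higher (3.69 and 2.26). Among 5 tested Ly6 relatives, 1 was higher (Ly6d) and 1 lower (Ly6c2) in both genotypes, and of 8 tested partners of endoglin and relatives of CD34, Bmp4 alone was higher in WT LSK cells (1.80, edgeR adjusted p = 0.0717) and 0 passed in Ripk3-KO. Between genotypes 0 genes of these lists passed in either population (limma). The largest differences in LSK cells were those of Acvrl1, a receptor that binds endoglin, at 1.76 (limma adjusted p = 0.115), and Podxl2, a relative of CD34, at -1.73 (limma adjusted p = 0.202). Both were low. Acvrl1 stood at 0 and 0 signal in WT LSK and at 2.73 and 2.05 in Ripk3-KO LSK, and Podxl2 at 6.26 and 4.04 and at 2.33 and 0. In LK cells the largest were those of Slamf7 at 1.60 (limma adjusted p = 0.607) and Fcgrt at 1.60 (limma adjusted p = 0.224, edgeR adjusted p = 0.0455). These were also low. Slamf7 stood at 0.136 and 0 signal in WT LK and at 2.09 and 2.36 in Ripk3-KO LK, and Fcgrt at 1.15 and 1.30 and at 6.91 and 4.72.

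The genes whose log2 level followed each member most closely over the 8 libraries were taken from 10700 genes with a mean of at least 5 joint CPM, as a description, since all points share the LSK to LK contrast and their depth. Flt3 was followed by Stxbp4 (Pearson's r = 0.998), Wfdc2 (0.996) and Il17re (0.994), and Fcgr3 by Plac8 (0.998), Clec12a (0.996) and Ms4a3 (0.994). Fcgr2b was followed by 1190007F08Rik (0.997), Rrm2 (0.997) and Acsl5 (0.996), and Ly6a by Insl6 (0.993), Tet1 (0.993) and Nkx2-3 (0.991). For Cd34 the genes were Gch1 (0.983), Gimap4 (0.979) and Shisa5 (0.975), and for Cd48 Zfml (0.984), Gtf3c3 (0.979) and Tgds (0.973). Kit was followed less closely, by Tbc1d25 (0.965), Ogfod1 (0.962) and Akap1 (0.959), as were Slamf1, by Kctd18 (0.972), Tctn3 (0.971) and Neb (0.970), and Eng, by Adck3 (0.955), Purb (0.953) and Pstk (0.951). The number of genes with r over 0.95 was 361 for Fcgr3, 343 for Fcgr2b, 195 for Flt3, 176 for Ly6a and 30 or fewer for each of the other members.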

How the data were processed

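RNA-seq of LSK and LK cells from WT and Ripk3-KO mice gave 8 libraries in 4 groups of 2. Per the labels, libraries were made with a stranded mRNA kit, and the submitters' processing notes name TopHat and mm9; versions and the counting tool are not given in the sources used here. The signal values deposited by the authors, 1 per gene and library, are headed FPKM, but 100% of those above 0 were whole multiples, within 0.01, of one step per library, and so are TMM-scaled CPM without division by length, scaled separately for LSK and LK cells. The planned tests were kept on this signal. Reads were recovered by dividing by the step, and TMM over all 8 libraries gave joint CPM.

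The main test was limma 3.58.1 (eBayes with trend, two-sided) on log2(value + 1), a scale that understates changes of low genes, with 4 group means over all 8 libraries, on signal for genotype and the interaction and on joint CPM for LSK against LK. Genes with a mean of at least 1 were tested, all 9 members in each comparison, and p-values were adjusted over all genes tested by Benjamini-Hochberg, with a threshold of 0.05. An exact permutation of 2 libraries against 2 cannot reach this threshold. Replicates differed by more than counting error (chi-square per degree of freedom 20.8 to 28.9). Alternatives were edgeR 4.0.16 and DESeq2 1.42.0 on recovered reads, other filters, pseudocounts and scalings, a replicate block and leaving out each library. Transcript lengths came from GENCODE M21 and windows before start sites from RefSeq on GRCm38.p6, whereas the files name no coordinates. The scripts were tested on simulated counts (R 4.3.3, Python). Named genes were the members, checks of Ripk3 and sex, up to 4 called genes per list and comparison by smallest p (otherwise up to 2 by size of change), and the 3 genes most like each member. Robo4, Itga2b, Prom1, Il7r, Cd3e, Pax5, Nkg7, Lck, Cd79b and Fpgs were named beyond this rule, after their values were seen. An item of the lists is not reported here. The members and lists were chosen with earlier results of these data known.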

Additional observations from a re-analysis of the deposited data

Results flagged for a closer look

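Cd34 was flagged because its genotype difference had opposite directions in the populations. Both Ripk3-KO LSK libraries (1434 and 1060.5 signal) lay above both WT LSK libraries (953 and 965), whereas both Ripk3-KO LK libraries (490.3 and 489.6) lay below both WT LK libraries (547 and 510.01). On the log2 scale Cd34 differed by 0.36 in LSK and by -0.11 in LK cells. The difference between these, 0.47 (95% interval 0.010 to 0.93) did not pass the correction over all genes (limma adjusted p = 0.482, and 0.315 to 0.862 over its alternatives). With quantile normalization the LK difference turned to 0.030.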

How the results depend on the processing

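Between LSK and LK cells, Ly6a, Flt3, Fcgr3 and Fcgr2b kept direction and call in both genotypes under every alternative run. The 2 libraries of a group spread well beyond counting error, as measured over all genes with at least 10 reads in the pair. Ly6a in LK cells rested on 2 to 65 reads. The part of depth in the results of single genes was not tested. The cause of the changes listed here was not tested.

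Genes called between genotypes in LSK cells (363) became 198 with no filter, 120 with no trend in the prior variance, 237 in edgeR, 613 in DESeq2 and 195 with LSK libraries fitted alone. The members called there (1) became 0 with no filter, with median-centred libraries or with no trend, 3 with quantile normalization and 2 in DESeq2. In LK cells the count (66) became 9 with no filter, 39 with quantile normalization, 3 with no trend, 177 in DESeq2 and 125 with LK libraries alone. The interaction (57) gave 3 with no filter, 2 with no trend and 155 in DESeq2. LSK against LK gave 2448 with no filter, 1912 with quantile normalization and 1900 with no trend in WT (3769), and 1935 with no filter and 1353 with no trend in Ripk3-KO (3036).

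Directions turned only for members that had not passed. In log2 units, Kit in LSK over LK became 0.21 (quantile) and 0.074 (deposited scaling) in WT, and 0.41 (quantile), 0.00067 (edgeR), 0.017 (DESeq2) and 0.32 (deposited scaling) in Ripk3-KO. Between genotypes, Slamf1 in LSK cells became -0.0024 (median-centred) and -0.018 (DESeq2), and in LK cells Ly6a became -0.38 (pseudocount of 0.1) and -0.0096 (quantile) and Cd34 0.030 (quantile). In the interaction, Ly6a became -0.39 (edgeR) and -0.40 (DESeq2), Fcgr3 -0.21 (quantile) and -0.024 (median-centred), and Cd48 -0.067 (quantile), -0.077 (median-centred), -0.0035 (edgeR) and -0.0041 (DESeq2).

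Leaving out 1 library at a time gave 99 to 262 called genes between genotypes in LSK cells, 13 to 101 in LK cells, 17 to 90 for the interaction, 1616 to 4179 for LSK against LK in WT and 1449 to 3165 in Ripk3-KO. Members called ran from 0 to 1, 0 to 0, 0 to 0, 4 to 6 and 5 to 7 in the same order. Ranges of log2 differences that crossed 0 were, between genotypes in LSK cells, -0.48 to 0.70 for Slamf1, -0.0042 to 0.41 for Cd48 and -0.14 to 0.48 for Eng; in LK cells, -0.21 to 1.21 for Ly6a, -0.18 to 0.026 for Fcgr2b, -0.62 to 0.99 for Slamf1 and -0.74 to 0.073 for Eng; in the interaction, -0.86 to 1.33 for Ly6a, -0.14 to 0.32 for Fcgr3, -0.88 to 0.73 for Slamf1 and -0.17 to 0.24 for Cd48. For Kit in LSK over LK in Ripk3-KO the range was -0.22 to 0.24.

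Replicate numbers are shared by the groups, but same-numbered libraries did not deviate together (r of -0.152 to 0.0234 over the 6 pairs of groups). The r of -0.152 was that of Ripk3-KO LSK with Ripk3-KO LK. Each group gives only the difference of its 2 libraries, so that these r cannot show whether LSK and LK libraries came from the same mice. With the replicate block 317, 64 and 53 genes were called for the genotype in LSK cells, in LK cells and for the interaction, and 3568 and 2875 for LSK against LK in WT and Ripk3-KO. With LSK and LK libraries as pairs the last counts were 3158 and 2599. Of the members called between LSK and LK cells in WT (6), 5 remained called with the replicate block, Cd48 being lost (limma adjusted p = 0.0533), and 4 with the pairs, Cd34 (0.0703) and Cd48 (0.0723) being lost. In Ripk3-KO 6 were called in both, and no other member's call changed. Crossed pairs in Ripk3-KO, tried after seeing the data, gave 3434 genes and 7 members.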
